A study of Danio rerio with 18 samples.

Results

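Genes for inhibitors of cyclin-dependent kinases (CDKs) other than cdkn1a (p21) were examined in whole zebrafish embryos after ionizing radiation. The genes were taken by name, in a choice made with earlier results of these data known. The list held 7 genes: cdkn1ba, cdkn1bb, cdkn1ca, cdkn1cb and cdkn1d, relatives of cdkn1a, and cdkn2a/b and cdkn2c of the Ink4 family. Of these 7, 6 were matched to a gene among the 32057 of the deposited tables, and all 6 passed the filter on low values. The gene cdkn1d was matched to no identifier and has no value here. The symbol CDKN1B belonged to both ENSDARG00000029018 and ENSDARG00000054271 in the table of gene names. The first identifier was taken as cdkn1ba, as the list gives it, and the second as cdkn1bb because it was the other one of that symbol, which the files do not check. The remaining genes were cdkn1ca (ENSDARG00000010878), cdkn1cb (ENSDARG00000104903), cdkn2a/b (ENSDARG00000037262) and cdkn2c (ENSDARG00000057610).

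CDK inhibitors are small proteins that stop the cell cycle by binding the kinases that drive it. Proteins of the Cip/Kip family, to which cdkn1a and the other cdkn1 genes belong, bind complexes of a cyclin with a CDK, above all those of CDK2, and block entry into DNA replication. Ink4 proteins bind CDK4 and CDK6 and keep them from joining with D-type cyclins. In mammals, Cdkn1a is the textbook target of the transcription factor p53 after DNA damage, the protein of Cdkn1b is governed largely by its breakdown, and Cdkn1c is known from cells that leave the cycle to differentiate.

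The embryos had 1 of 3 genotypes. The triple mutant (puma -/- noxa -/- p21 -/-) carries mutations in the cell death genes puma and noxa and in cdkn1a itself, and keeps p53. It was sampled untreated and 1 h, 2 h and 3 h after irradiation. The p53 mutant (p53 -/-) was sampled untreated and at 1 h and 3 h, and the wild type (p53 +/+) at 3 h and untreated. The dose was 30 Gy of X-rays, given at 5 Gy per min 30 h after fertilization. Each of the 9 groups had 2 libraries, 18 in all, prepared from poly(A)-selected total RNA. The alleles, the age of the untreated embryos at collection and whether replicates are from different clutches are not given in the labels, so p-values measure only the spread between these libraries. In whole embryos, fewer cells of a type and less RNA per cell cannot be told apart.

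Levels are in TPM, a measure of transcript abundance that is corrected for gene length and sums to 1000000 in each library, so the depth of the libraries is unknown. Genes with at least 1 TPM numbered 14057 to 17419 per library. Replicates correlated across genes at 0.987 to 0.994, except in the untreated wild type (0.944), the untreated p53 mutant (0.963) and the p53 mutant at 1 h (0.907). In these 3 pairs, replicate 1 held 5.8S ribosomal RNA at 304 to 631 TPM and replicate 2 at 13.6 to 52.8 TPM, while the other 12 libraries were listed at 0. The mutated cdkn1a of the triple mutant (ENSDARG00000076554) was still transcribed, with 65.8 and 51.9 TPM at 3 h against 1.92 and 3.54 TPM untreated. Wild type embryos had 361 and 306 TPM of it at 3 h and 4.44 and 6.96 TPM untreated, and no p53 mutant library exceeded 8.78 TPM.

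The inhibitor genes differed widely in level. In untreated embryos of every genotype, cdkn1ca was the most abundant, at 95.8 ± 1.76 TPM in the triple mutant, 95.7 ± 7.11 TPM in the p53 mutant and 113 ± 35.6 TPM in the wild type (mean ± SD, n = 2 each). The gene cdkn1bb followed, at 27.3 ± 1.05 TPM in the untreated triple mutant, 32.2 ± 2.27 TPM in the p53 mutant and 29.6 ± 6.36 TPM in the wild type. Next stood cdkn1ba and cdkn1cb, whose libraries overlapped in the untreated wild type but not in the other genotypes. The Ink4 genes were lowest, with cdkn2c between 1.84 and 3.20 TPM in the 6 untreated libraries and cdkn2a/b between 0 and 0.9 TPM.

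This order changed 3 h after irradiation where p53 was intact. In the wild type at 3 h, cdkn1ca had 91.2 ± 3.65 TPM, cdkn1ba 71.2 ± 1.21 TPM, cdkn1bb 34.5 ± 0.0990 TPM and cdkn2a/b 31.1 ± 2.43 TPM, and the libraries of these neighbours did not overlap. The triple mutant at 3 h gave the same order, with 106 ± 0.842 TPM of cdkn1ca, 67.0 ± 1.39 TPM of cdkn1ba, 29.2 ± 0.700 TPM of cdkn1bb and 12.1 ± 5.39 TPM of cdkn2a/b. At 3 h the p53 mutant kept the order of untreated embryos, with cdkn1bb at 34.6 ± 0.573 TPM above cdkn1ba at 15.0 ± 0.615 TPM and cdkn2a/b listed at 0.

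**Figure D1:**
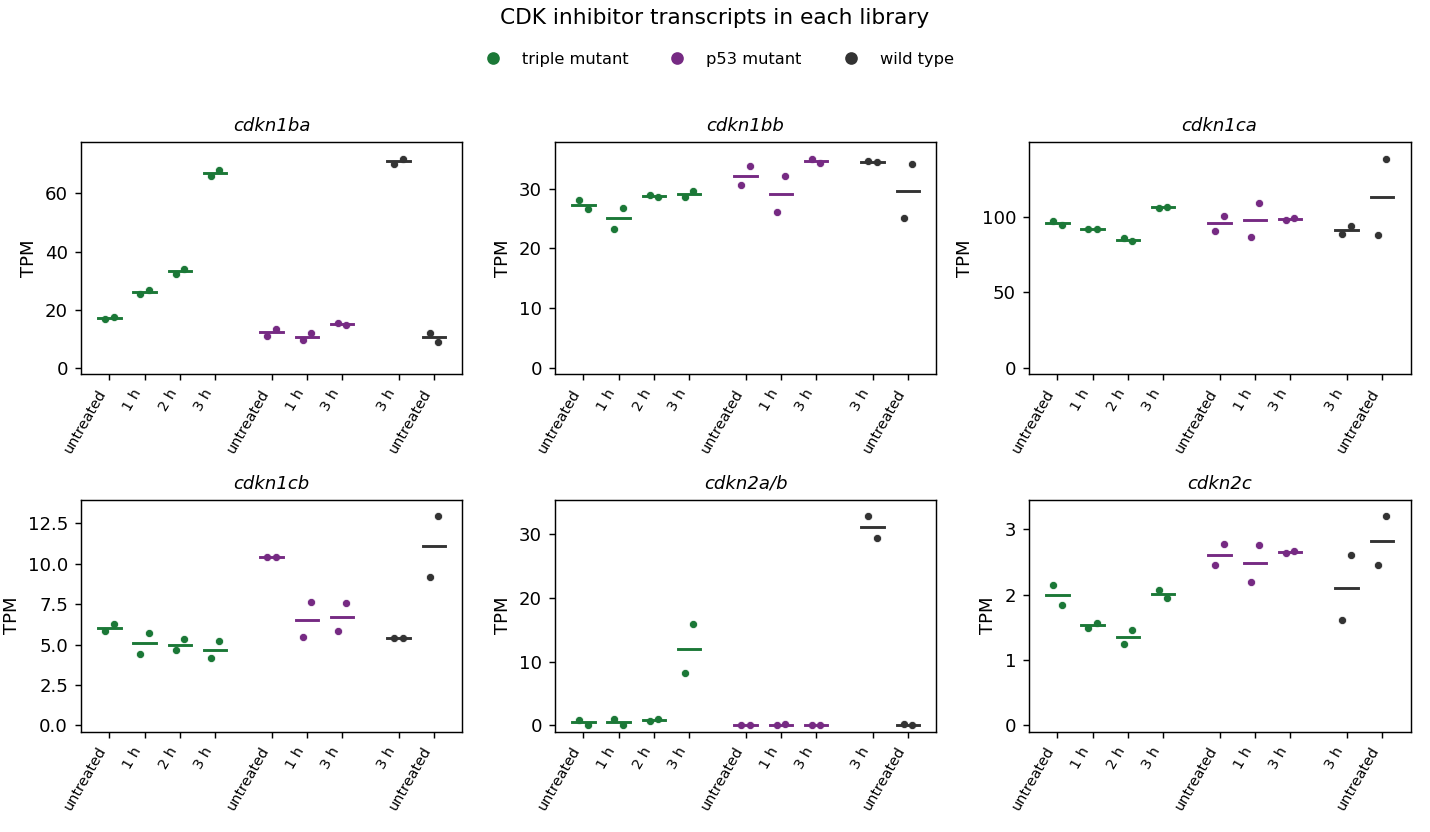
TPM of the 6 measured inhibitor genes in each of the 18 libraries, by genotype and hours after irradiation. Points are libraries and bars are group means (n = 2). The genes cdkn1ba and cdkn2a/b stand high at 3 h in the triple mutant and the wild type, while cdkn1bb, cdkn1ca and cdkn2c show no such step.

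Changes were tested with limma on log2(TPM + 1), and those with a Benjamini-Hochberg adjusted p below 0.05 over the 18575 genes tested were called. At 3 h in the wild type, 2 of the 6 inhibitor genes were called higher, cdkn2a/b and cdkn1ba, and 1 was called lower, cdkn1cb. Over all genes, 3.11% were called higher and 0.668% lower. The median change of the 6 genes was -0.02, against 0.23 over all genes tested, and rescaling the libraries brought the median of all genes near 0. Relative to that median, cdkn2a/b changed by 4.66, cdkn1ba by 2.43 and cdkn1cb by -1.13. The untreated wild type held the uneven 5.8S content described above, and the changes without untreated replicate 1 or 2 were 2.87 and 2.46 for cdkn1ba and 5.00 and 4.78 for cdkn2a/b, all called.

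The Kip gene cdkn1ba, whose protein binds cyclin E and cyclin A complexes of CDK2, had 70.3 and 72.0 TPM in wild type embryos at 3 h, against 12.1 and 8.84 TPM in untreated ones. The libraries were far apart. The mean was 6.80-fold higher at 3 h, a log2 change of 2.67 (SE 0.167, adjusted p = 2.45e-06), the 39th highest of the 18575 genes. Its call held under every alternative tried and with any 1 library left out, with adjusted p up to 0.0309 in a fit within the wild type table.

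In the triple mutant, cdkn1ba had 16.6 and 17.4 TPM untreated, 25.3 and 26.6 TPM at 1 h, 32.4 and 34.0 TPM at 2 h, and 66.0 and 68.0 TPM at 3 h. No libraries of neighbouring times overlapped, and the share of all genes so separated was not counted. Group means were 1.53-fold the untreated mean at 1 h, 1.95-fold at 2 h and 3.94-fold at 3 h. The change at 3 h was 1.92 (SE 0.167, adjusted p = 6.33e-05, limma), and this call held under every alternative and left-out library. Between 1 h and 3 h the gene rose by 1.33 (SE 0.167, adjusted p = 0.00287). That call was lost under median-of-ratios scaling (adjusted p = 0.0521) and without replicate 2 at 3 h (adjusted p = 0.0667).

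Earlier changes of cdkn1ba in the triple mutant did not pass the test. The change was 0.59 at 1 h (SE 0.167, unadjusted p = 0.00436, adjusted p = 1) and 0.93 at 2 h (SE 0.167, adjusted p = 0.054). The value at 2 h was called in 7 of 11 other settings and without any 1 of 4 libraries. Some of these settings called far more of all genes at 2 h than the main fit, up to 7138 with array weights against 41. The value at 1 h was called in 4 settings. At these times cdkn1a was called higher, by 3.28 at 1 h and 3.54 at 2 h, and it changed by 0.75 between 1 h and 3 h (adjusted p = 1). The 2 genes were not tested against each other.

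Without p53, cdkn1ba showed no such step. The p53 mutant had 11.0 and 13.4 TPM untreated, 9.45 and 11.9 TPM at 1 h, and 15.5 and 14.6 TPM at 3 h. Libraries at 1 h overlapped the untreated ones, and those at 3 h lay just above them. The changes were -0.18 at 1 h (SE 0.167, adjusted p = 1) and 0.29 at 3 h (SE 0.167, adjusted p = 0.628). The median of all genes had shifted by 0.17 at 3 h and by -0.15 at 1 h in this genotype. Without the 3 libraries of low 5.8S content, which leaves 1 untreated library, the change at 3 h was 0.42.

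The Ink4 gene cdkn2a/b is the zebrafish counterpart of mammalian Cdkn2a and Cdkn2b, a locus best known from tumours and senescent cells. It was listed at 0 in 8 of the 18 libraries and reached 1 TPM in 6, of which 4 were at 3 h. The others were triple mutant libraries with 1.05 TPM at 1 h and 1.06 TPM at 2 h. Outside the 3 h groups, it thus met the filter only narrowly. Wild type embryos had 32.9 and 29.4 TPM at 3 h, against 0.17 and 0 TPM untreated. It rose by 4.89 (SE 0.376, adjusted p = 1.36e-05), the fourth highest change over all genes, and the call held under every alternative. Because the untreated level is near 0, the size depends on the pseudocount, from 2.83 to 7.57 over the alternatives.

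In the triple mutant, cdkn2a/b stood high at 3 h and not before. Levels were 0.9 and 0 TPM untreated, 1.05 and 0 TPM at 1 h, 0.63 and 1.06 TPM at 2 h, and 8.24 and 15.9 TPM at 3 h. All libraries before 3 h lay at or below 1.06 TPM, and the pair at 3 h differed from each other more than in the wild type. The gene rose by 3.18 against untreated embryos (SE 0.376, adjusted p = 0.000941) and by 3.12 against those at 1 h (SE 0.376, adjusted p = 0.00223). This SE is shared by all 9 groups, among them p53 mutant groups with both libraries at 0. It may therefore understate the spread within the triple mutant. At 1 h and 2 h its changes were 0.05 (adjusted p = 1) and 0.41 (adjusted p = 0.876). A pseudocount of 0.1 TPM gave a larger change at 3 h, 5.19, which was not called (adjusted p = 0.107).

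Among the 6 p53 mutant libraries, 5 listed cdkn2a/b at 0 and 1, at 1 h, had 0.2 TPM. No fold is given for this genotype, since its untreated and 3 h libraries were all at 0.

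Tests of the difference between genotypes were made on the changes at 3 h. For cdkn1ba the change was 0.29 in the p53 mutant and 2.67 in the wild type, and the wild type change minus that of the p53 mutant was 2.38 (SE 0.236, adjusted p = 0.000438). The same difference for cdkn2a/b was 4.89 (SE 0.531, adjusted p = 0.000881), and it rests on p53 mutant groups at 0. These 2 genes were called higher, where 0.345% of all genes were. The call of cdkn2a/b was lost with a pseudocount of 0.1 TPM and with array weights (adjusted p up to 0.17), while that of cdkn1ba held throughout.

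The triple mutant change also exceeded that of the p53 mutant for the same pair, by 1.63 for cdkn1ba (SE 0.236, adjusted p = 0.00937) and by 3.18 for cdkn2a/b (SE 0.531, adjusted p = 0.0281). Over all genes, 0.237% were called higher in this comparison. For cdkn1ba the call was lost under median-of-ratios scaling (adjusted p = 0.0673) and in 7 of 18 fits without 1 library (up to 0.079). For cdkn2a/b it was lost in 4 settings (up to 0.551), among them the replicate block, and in 10 of the 18 (up to 0.153).

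Against the wild type, the triple mutant change at 3 h was smaller by 0.75 on the log2 scale for cdkn1ba (SE 0.236, unadjusted p = 0.008, adjusted p = 0.565) and by 1.71 for cdkn2a/b (SE 0.531, unadjusted p = 0.00743, adjusted p = 0.55). None of the 6 genes was called by limma, where 0.0592% of all genes were called. An unadjusted p under 0.05 was found for 2 of the 6 and for 1105 of all 18575 genes tested. For cdkn1ba, untreated levels were 17.0 ± 0.509 TPM in the triple mutant and 10.5 ± 2.30 TPM in the wild type. The levels at 3 h were 67.0 ± 1.39 TPM in the triple mutant and 71.2 ± 1.21 TPM in the wild type. Levels were not tested between genotypes, since genotype and deposited table cannot be told apart in them. Without the 3 libraries of high 5.8S content, which leaves 1 untreated wild type library, the difference for cdkn1ba was -0.96. Without those of low content, which also leaves 1, it was -0.54.

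At 1 h, the triple mutant change of cdkn1ba minus that of the p53 mutant was 0.76 (SE 0.236, unadjusted p = 0.00713, adjusted p = 1). It was the single inhibitor gene with an unadjusted p under 0.05, which 322 of all 18575 genes tested had. None of the inhibitor genes was called by limma, where 0.0269% of all genes were.

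**Figure D2:**
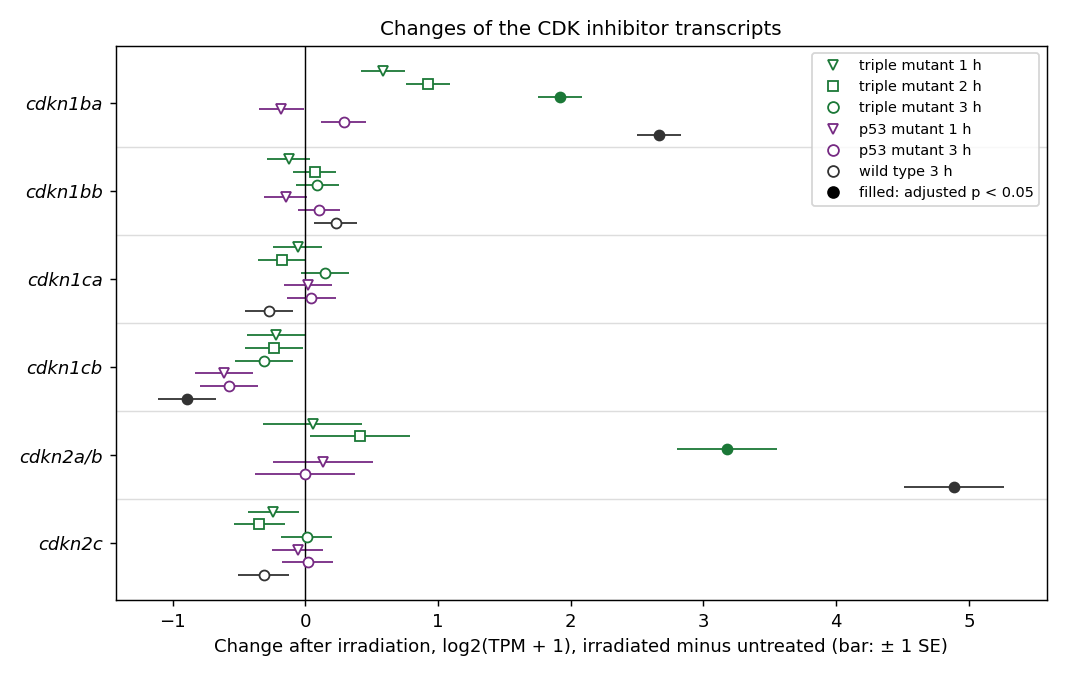
Change of each inhibitor gene after irradiation on the log2(TPM + 1) scale, irradiated minus untreated embryos of the same genotype, with bars of 1 SE from the limma fit. Filled symbols passed an adjusted p of 0.05: cdkn1ba and cdkn2a/b in the triple mutant and the wild type at 3 h, and cdkn1cb, below 0, in the wild type.

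Counts in the other comparisons with untreated embryos were as follows. At 3 h in the triple mutant, cdkn1ba and cdkn2a/b were the 2 of 6 called higher and none was called lower, where 0.598% of all genes were higher, and the median change of the 6 was 0.12 against 0.07 over all genes. Between 1 h and 3 h the same 2 were called higher, where 0.334% of all genes were. At 1 h in the triple mutant none was called by limma, where 0.0808% of all genes were called. An unadjusted p under 0.05 was found there for 1 of the 6 and for 522 of all 18575 genes. At 2 h none was called, where 0.221% of all genes were, and 1 had such a p, against 1426 of all genes. In the p53 mutant none was called at 1 h, where 0.00538% of all genes were, or at 3 h, where 0.458% were. At each of these times 1 of the 6 had such a p, against 202 and 1866 of all genes.

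The gene cdkn1bb, the paralog of cdkn1ba, was not called in any comparison. Its libraries ranged from 23.3 to 35.1 TPM. Wild type embryos had 34.6 and 34.4 TPM at 3 h and 25.1 and 34.1 TPM untreated, a change of 0.23 (SE 0.162, adjusted p = 0.529) that matched the shift of the median of all genes. At 3 h it changed by 0.09 in the triple mutant and by 0.10 in the p53 mutant. Without the 3 libraries of low 5.8S content, which leaves 1 untreated wild type library, the wild type change was 0.44.

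Set against each other within a library, the paralogs changed places. The ratio of cdkn1ba to cdkn1bb in TPM was 0.592 and 0.652 in the untreated triple mutant, then 1.09 and 0.993 after 1 h, 1.12 and 1.19 after 2 h, and lastly 2.30 and 2.29 after 3 h. Wild type embryos gave 2.03 and 2.09 at 3 h and 0.481 and 0.259 untreated. The ratio in the p53 mutant lay between 0.358 and 0.441 in all 6 libraries. A ratio within a library does not change when all values of that library are multiplied by 1 factor, though it can change under quantile normalization. How reads shared by paralogs were assigned is not stated, so the split between this pair is uncertain.

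**Figure D3:**
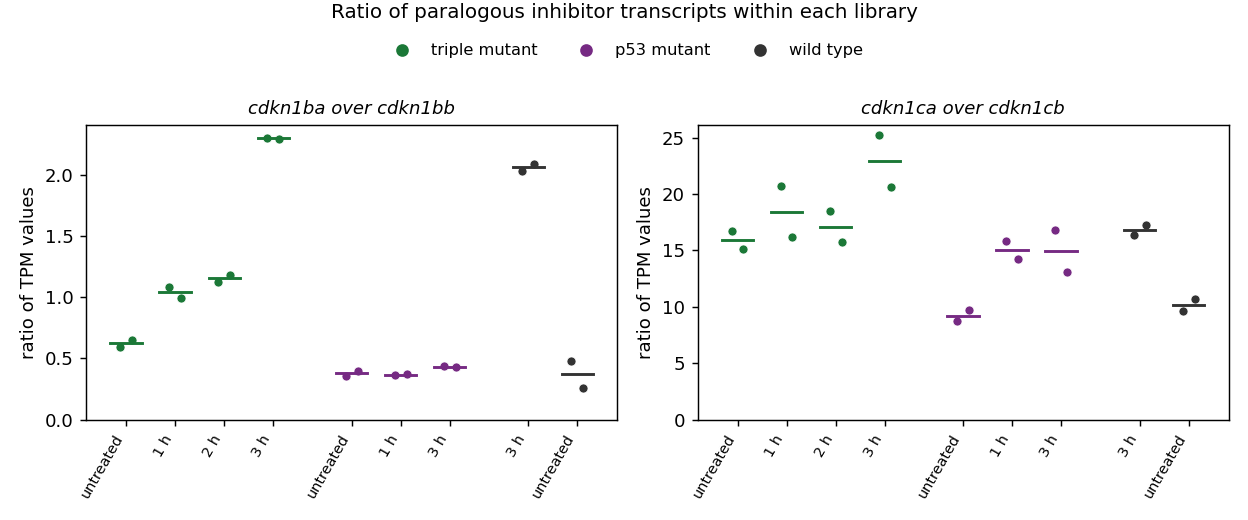
Ratio of TPM between paralogs within each library, cdkn1ba over cdkn1bb and cdkn1ca over cdkn1cb, by genotype and hours after irradiation. Points are libraries and bars are group means. The first ratio is at least 2.03 at 3 h in the triple mutant and the wild type and at most 0.441 in the p53 mutant, while the second is lowest in the untreated p53 mutant and wild type.

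The gene cdkn1ca, counterpart of mammalian Cdkn1c, had 97.0 and 94.5 TPM in the untreated triple mutant, 91.8 and 92.1 TPM at 1 h, 85.7 and 83.8 TPM at 2 h, and 106 and 107 TPM at 3 h. The pair at 2 h was the lowest and that at 3 h the highest. Against untreated embryos it changed by -0.06, -0.18 and 0.15 at these times (adjusted p from 0.891 to 1), of which the change at 2 h was called with array weights (adjusted p = 0.0333). The p53 mutant gave changes of 0.02 at 1 h and 0.05 at 3 h. Wild type levels were 88.7 and 93.8 TPM at 3 h, against 88.1 and 139 TPM untreated, and the change was -0.27 (SE 0.182, adjusted p = 0.497). That value turned on the untreated pair, and without untreated replicate 1 it was -0.60. In each of the 3 pairs that join a library of high and one of low 5.8S content, the library of high content had the lower cdkn1bb, cdkn1ca and cdkn2c, and the part of this in the results was not tested.

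The gene cdkn1cb, the less abundant Cdkn1c paralog, moved the other way from cdkn1ba. It had 5.42 and 5.43 TPM in wild type embryos at 3 h, against 9.20 and 12.9 TPM untreated. The mean at 3 h was 0.490 of the untreated mean, and the gene fell by 0.89 on the log2 scale (SE 0.219, adjusted p = 0.0447). This call was close to the threshold. It was lost without the filter, in the fit within the table and with array weights (adjusted p up to 0.523) and in 15 of the 18 fits without 1 library (up to 0.235).

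The p53 mutant had a cdkn1cb level of 10.4 and 10.4 TPM untreated, 5.45 and 7.64 TPM at 1 h, and 5.84 and 7.59 TPM at 3 h. Both irradiated pairs lay below the untreated pair, but the changes of -0.61 at 1 h (SE 0.219, unadjusted p = 0.0164, adjusted p = 1) and -0.57 at 3 h (SE 0.219, unadjusted p = 0.0226, adjusted p = 0.37) were not called. Without the 3 libraries of low 5.8S content, which leaves 1 library at 1 h and 1 untreated, the changes were -0.82 at 1 h and -0.57 at 3 h. Without replicate 2 at 1 h alone, the change at 1 h was also -0.82. The triple mutant had 5.81 and 6.26 TPM untreated, 4.44 and 5.70 TPM at 1 h, 4.64 and 5.32 TPM at 2 h, and 4.18 and 5.19 TPM at 3 h. Every irradiated library lay below the untreated pair, with changes of -0.22, -0.24 and -0.31 that were not called (adjusted p from 0.878 to 1). Most kinase, cyclin and breakdown genes described below also showed no overlap with untreated libraries at 2 h in this genotype. The share of all genes so separated within a single genotype was not counted. Untreated levels were thus 6.04 ± 0.318 TPM in the triple mutant, 10.4 ± 0.0141 TPM in the p53 mutant and 11.1 ± 2.65 TPM in the wild type, a contrast in which genotype and deposited table cannot be told apart. The wild type change minus that of the p53 mutant was -0.32 (SE 0.309, adjusted p = 1).

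The ratio of cdkn1ca to cdkn1cb was 8.71 and 9.69 in the untreated p53 mutant, 15.9 and 14.3 at 1 h, and 16.8 and 13.1 at 3 h. Wild type libraries gave 16.4 and 17.3 at 3 h and 9.58 and 10.7 untreated. Irradiated libraries of both genotypes thus lay above the untreated ones. The triple mutant had 16.7 and 15.1 untreated, 20.7 and 16.2 after 1 h, 18.5 and 15.8 after 2 h, then 25.3 and 20.6 after 3 h, so its untreated libraries already lay in the irradiated range of the others.

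Across genotypes, all 3 h libraries lay above all untreated ones of the same genotype in each of the 3 genotypes for cdkn1ba and cdkn1bb, as for 10.9% of all genes. With libraries rescaled by median-of-ratios or quantiles, neither gene did so, against 4.88% and 5.36% of all genes. All 3 h libraries lay below all untreated ones for cdkn1cb, as for 1.43% of all genes, and this held under both rescalings, where 3.57% and 3.47% of all genes did so.

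The Ink4 gene cdkn2c stayed low in all 18 libraries, between 1.24 and 3.20 TPM. Triple mutant embryos had 2.14 and 1.84 TPM untreated, 1.49 and 1.57 TPM at 1 h, 1.24 and 1.46 TPM at 2 h, and 2.07 and 1.95 TPM at 3 h. The libraries at 1 h and 2 h lay below the other 4, and its changes were -0.24 (adjusted p = 1), -0.35 (adjusted p = 0.739) and 0.01 (adjusted p = 1). Separation from untreated libraries was common at 2 h in this genotype, and its share over all genes was not counted. With array weights in limma, the change at 2 h was called (adjusted p = 0.0162), in a setting that called 7138 of all genes there. All p53 mutant libraries lay between 2.20 and 2.77 TPM. Wild type embryos had 1.61 and 2.60 TPM at 3 h against 2.45 and 3.20 TPM untreated, overlapping pairs with a change of -0.31 (SE 0.192, adjusted p = 0.455). A further gene of the Ink4 type, CDKN2D (ENSDARG00000094176), was not on the list and was looked at after its values were known. Its libraries ranged from 1.71 to 6.38 TPM and it was not called in any comparison. In the p53 mutant its mean was 4.865 TPM at 1 h against 2.285 TPM untreated, a change of 0.79 (limma, unadjusted p = 0.0148). Its change at 3 h was 0.52 in the p53 mutant (adjusted p = 0.588), 0.33 in the triple mutant and -0.12 in the wild type. The libraries at 1 h and 3 h in the p53 mutant all lay above the untreated ones, a separation whose share over all genes was not counted.

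Among the cdkn1 genes other than cdkn1a, cdkn1ba made up a larger part of the summed transcripts after irradiation in the triple mutant and the wild type. The sum leaves out cdkn1a, which at 361 and 306 TPM exceeded it in the wild type at 3 h. Its share of the TPM of cdkn1ba, cdkn1bb, cdkn1ca and cdkn1cb was 11.3% and 12.0% in the untreated triple mutant, 17.5% and 17.6% after 1 h, 21.4% and 22.4% after 2 h, then 32.3% and 32.4% after 3 h. Wild type libraries had 35.3% and 35.0% at 3 h and 8.99% and 4.55% untreated, while p53 mutant libraries had at most 10.0%. The summed level of these 4 genes was 204 and 209.6 TPM in the triple mutant at 3 h, against 148 and 145 TPM untreated. It was 199 and 206 TPM in the wild type at 3 h, against 135 and 194 TPM untreated. In the p53 mutant it was 155 and 156 TPM at 3 h, between the untreated values of 143 and 158 TPM. The mutated cdkn1a transcript of the triple mutant, at 51.9 and 65.8 TPM at 3 h, was thus close in level to cdkn1ba, whereas in the wild type cdkn1a was several times more abundant than any other inhibitor.

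The kinases and cyclins that these proteins act on were looked at next. A list of 24 symbols for CDKs, cyclins and their direct regulators matched 23 genes, of which 20 passed the filter. None was called higher in any comparison, where 0% to 3.11% of all genes were called higher, depending on the comparison. The list genes called lower were B-type cyclins, which drive mitosis with CDK1. The gene ccnb3 (ENSDARG00000034855) fell by 1.41 in the wild type at 3 h (adjusted p = 0.000257), by 1.57 in the p53 mutant at 3 h (adjusted p = 0.000449) and in the triple mutant by 1.42, 2.11 and 1.38 at 1 h, 2 h and 3 h (adjusted p = 0.00219, 3.93e-05 and 0.000488). CCNB1 (ENSDARG00000051923) fell by 0.63 in the wild type at 3 h (adjusted p = 0.0381), by 1.15 in the p53 mutant at 3 h (adjusted p = 0.00327) and by 1.06 in the triple mutant at 2 h (adjusted p = 0.0104).

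That made 2 of 20 lower in the wild type at 3 h, where 0.668% of all genes were lower. The count was 2 of 20 in the p53 mutant at 3 h, against 0.226% of all genes. It was 1, 2 and 1 of 20 in the triple mutant at 1 h, 2 h and 3 h, against 0.0377%, 0.118% and 0.151%. The cyclin gene ccnb3 was thus called in all 3 genotypes. Among kinases, CDK1 had the largest change in the wild type at 3 h, -0.86 (adjusted p = 0.0512), and CDK4, the partner of Ink4 proteins, changed by 0.68 (adjusted p = 0.112).

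A second list held 24 symbols for the breakdown of these inhibitors, such as the ubiquitin ligase parts SKP2 and CUL4A, and 22 genes were matched and tested, with 2 of them matching the symbol cks2. None was called higher in any comparison, where at most 3.11% of all genes were called higher. Called lower were 2 in the wild type at 3 h and 1 in the triple mutant at 2 h, where 0.668% and 0.118% of all genes were lower. All were cks2 genes, whose proteins bind CDKs. In the wild type, cks2 (ENSDARG00000071410) fell by 1.02 (adjusted p = 0.0373) and a further CKS2 gene (ENSDARG00000117089) by 0.79 (adjusted p = 0.0133). At 2 h, cks2 fell by 1.94 in the triple mutant (adjusted p = 0.00374). At 3 h its changes of -1.14 in the triple mutant (adjusted p = 0.0581) and -0.82 in the p53 mutant (adjusted p = 0.218) were not called. FBXW7 is a gene whose protein marks cyclin E for breakdown and which the series names. At 3 h it changed by 1.07 in the triple mutant (adjusted p = 0.741), 1.11 in the wild type (adjusted p = 0.157) and -0.02 in the p53 mutant (adjusted p = 0.994). SKP2 itself changed by -0.18 in the wild type at 3 h (adjusted p = 0.781). The median change of the list there was 0.09, against 0.23 over all genes.

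For each inhibitor gene, the 3 genes with the most similar pattern were found by Pearson correlation over the 18 libraries, after subtracting the mean of the untreated libraries of the same genotype. The libraries share their genotype, time and table, so these values are a description. Closest to cdkn1ba were ankrd50l (0.986), sesn3 (0.985), a member of the stress-induced sestrin family, and EXO5 (0.981), an exonuclease gene. Closest to cdkn2a/b were si:dkey-21o19.8 (0.974), si:dkey-85n7.7 (0.973) and RNF14 (0.973). The correlation of cdkn1ba with cdkn2a/b was 0.936, and that of cdkn1ba with its paralog cdkn1bb was 0.544.

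These genes were picked for their likeness over the same libraries, so their changes are given as values only. EXO5 changed by 3.52 in the triple mutant, 0.24 in the p53 mutant and 3.90 in the wild type, and sesn3 by 2.70 in the triple mutant, 0.28 in the p53 mutant and 3.30 in the wild type. RNF14 changed by 2.95 in the triple mutant at 3 h, 0.38 in the p53 mutant and 3.55 in the wild type.

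**Figure D4:**
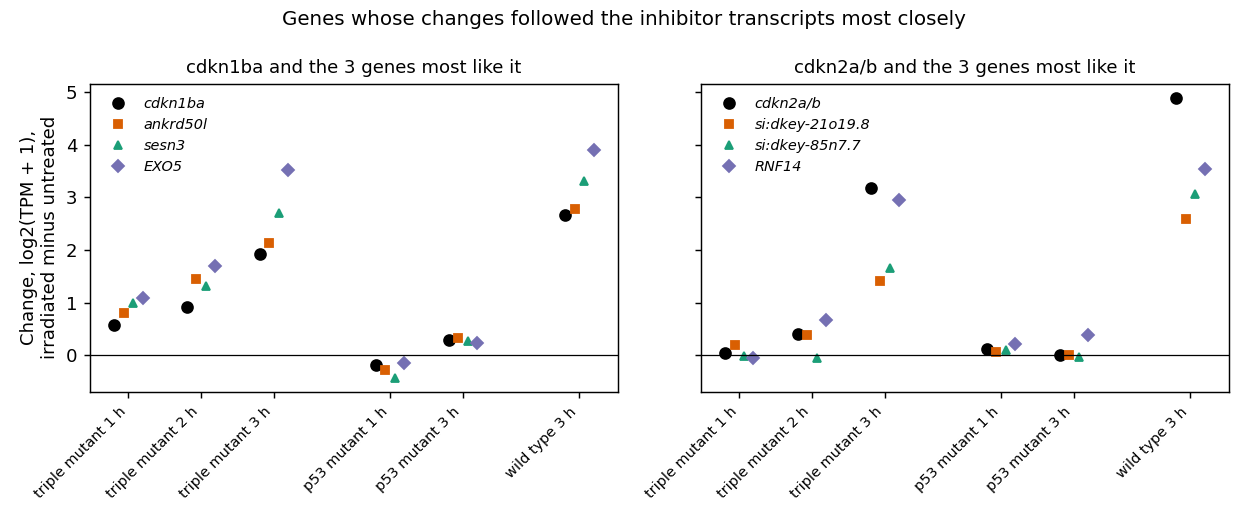
Changes on the log2(TPM + 1) scale, irradiated minus untreated, of cdkn1ba and of cdkn2a/b, each with the 3 genes of most similar pattern. Each point is the fitted change of 1 gene in 1 comparison. The genes like cdkn1ba lie higher at each later time in the triple mutant, while those like cdkn2a/b reach at most 0.68 before 3 h.

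The other inhibitors had weaker neighbours. For cdkn1bb they were zgc:56235 (0.949), mtmr3 (0.942) and OTUD5 (0.941), for cdkn1ca HOXC6 (0.896), irx4b (0.882) and zgc:55943 (0.872), for cdkn1cb SOX21 (0.863), nmrk2 (0.853) and si:dkey-29j8.3 (0.851), and for cdkn2c il4r.1 (0.791), si:dkey-14o18.3 (0.785) and XRCC3 (0.771). Among the inhibitors themselves, cdkn1ca correlated with cdkn2c at 0.767 and with cdkn1cb at 0.452, and cdkn1ba with cdkn1cb at -0.516.

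Differentiating cells express CDK inhibitors too, so markers of embryonic tissues were set beside these values. The markers were of muscle, neurons, neural progenitors, lens, blood, epidermis and hatching gland, and all that matched a gene passed the filter. Of 8 symbols each for lens and hatching gland, only 3 were matched. In the wild type at 3 h, 1 of 3 lens markers, CRYAA, fell by 1.55 (adjusted p = 0.00194), where 0.668% of all genes were called lower. Its mean was 1.275 TPM at 3 h against 5.67 TPM untreated, a small part of the lens sum. The summed lens markers were 591 to 596 TPM at 3 h against 872 to 1044 TPM untreated. At 2 h in the triple mutant, 1 of 3 hatching gland markers, he1.1, fell by 1.00 (adjusted p = 0.0349), where 0.118% of all genes were called lower. No marker was called in the triple mutant or the p53 mutant at 3 h. Some summed levels there did not overlap the untreated ones, which can occur by chance with 2 libraries a group. In the triple mutant, epidermis markers summed to 8302 to 8744 TPM at 3 h against 11910 to 12470 TPM untreated, and hatching gland markers to 4067 to 4459 TPM against 5823 to 6288 TPM. Its muscle, neuron and neural progenitor sums were higher at 3 h, without overlap. In the p53 mutant, muscle markers summed to 8228 to 12190 TPM at 3 h against 15190 to 19020 TPM untreated. Its blood sum was also lower, and its neural progenitor, epidermis and hatching gland sums were higher, without overlap. Muscle, neural progenitor and blood sums were higher in the wild type at 3 h than untreated. Most of each neural progenitor sum was PCNA, which was also on the list for breakdown of the inhibitors. Its mean at 3 h against untreated was 898.9 against 748.1 TPM in the triple mutant and 648.1 against 566.3 TPM in the wild type. In the p53 mutant it was 766.2 against 744.8 TPM. The median change of the 5 progenitor markers at 3 h was -0.04 in the triple mutant, 0.19 in the wild type and 0.33 in the p53 mutant. These sums were not tested, and the part of tissue composition in the inhibitor changes was not tested.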

How the data were processed

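The authors deposited 3 tables of TPM values, 1 per genotype, with 32057 genes and a column per library, 18 columns in all. Per the submitters' processing notes, RSEM 1.3.3, STAR 2.7.3a, HTSeq 0.12.3, DESeq2 1.42.1 and R 4.3.3 were used with the build GRCz11, each in a role that is not given. The annotation release, the handling of reads shared by paralogs and the depth are not given in the sources used here, so no counting interval was computed. Symbols came from a table of gene names, matched ignoring case, for 28988 genes.

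Values were taken as log2(TPM + 1), and a fold change on this scale understates the change of low genes. A gene needed 1 TPM or more in 2 or more libraries, which 18575 genes had. A single limma 3.58.1 model in R 4.3.3 covered the 9 groups, with a mean-variance trend (9 residual and 2.87 prior degrees of freedom), and gave 11 comparisons with two-sided p-values adjusted by Benjamini-Hochberg over all genes kept. No comparison sets a level of one table directly against a level of another. The alternatives were other pseudocounts, filters and scalings, a fit within each table, array weights, a replicate block, and leaving out libraries.

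Named genes are all listed inhibitor genes, cdkn1a as a check, the list members called in any comparison, and the 3 genes of most similar pattern for each inhibitor. CDK1, CDK4, PCNA, SKP2, FBXW7 and CDKN2D were added after their values were seen. The genes and lists were chosen with earlier results of these data known. No sequences are shown.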

Additional observations from a re-analysis of the deposited data

Results flagged for a closer look

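The responses at 3 h differed between genotypes by the limma test of the difference itself for cdkn1ba and cdkn2a/b. The wild type change minus the p53 mutant change was 2.38 for cdkn1ba and 4.89 for cdkn2a/b. The triple mutant change minus the p53 mutant change was 1.63 for cdkn1ba and 3.18 for cdkn2a/b. Both values of cdkn2a/b rest on p53 mutant groups listed at 0 TPM and depend on the pseudocount.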

How the results depend on the processing

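Among 1885 refitted changes of the 6 genes over 12 other settings and 18 fits that leave out 1 library, no called change reversed, 1809 stayed on their side of the threshold, 46 lost the call and 30 gained it. Of the 1809, 68 switched sign, none of them called. The count of inhibitor genes called moved by over 1.5 times as follows, and the cause was not tested. With a pseudocount of 0.1 TPM it was 1 in place of 2 for the triple mutant at 3 h, for 3 h against 1 h, and for both 3 h differences from the p53 mutant. A pseudocount of 5 TPM, no filter, a filter at 5 TPM and the fit within the table each gave 1 in place of 0 in the triple mutant at 2 h. The fit within the table also gave 1 there at 1 h. Median-of-ratios scaling gave 1 in place of 2 for 3 h against 1 h, and for the triple mutant minus the p53 mutant at 3 h, as did the filter at 5 TPM for the second of these. Array weights gave 1 at 1 h and 3 at 2 h in the triple mutant in place of 0, and 1 in place of 2 for both 3 h differences from the p53 mutant.

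Without the 3 libraries of high 5.8S content the count was 1 in place of 0 in the triple mutant at 1 h and 2 h and 3 for the triple mutant minus the wild type. Without the 3 of low content it was 1 at 1 h and 2 at 3 h in the p53 mutant, 1 in the triple mutant at 1 h and 2 h, 1 for the triple mutant minus the wild type, and 1 for the difference at 1 h, in place of 0. Each of these fits loses the spread of the pairs that agreed least, and each called more of all genes than the main fit in every comparison. Smaller moves were those of the wild type at 3 h, with 2 in place of 3 without the filter, in the fit within the table and with array weights and 4 without the libraries of high or of low 5.8S content, and of the wild type minus the p53 mutant, with 3 in place of 2 without those of high content. With 1 library left out, the count ranged from 2 to 4 in the wild type at 3 h, 0 to 1 in the p53 mutant at 1 h and in the triple mutant at 2 h, 1 to 2 for 3 h against 1 h, and 0 to 2 for the triple mutant minus the p53 mutant.

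Replicate numbers were not taken to pair the libraries, since the labels tie them to nothing shared and same-numbered deviations correlated from -0.339 to 0.169 in all pairs of groups but 1. The exception was the p53 mutant at 1 h and untreated (0.789), where number 1 is the library of high 5.8S content in both. The replicate block gave 1 in place of 2 for the triple mutant minus the p53 mutant and moved no other count of inhibitor genes. A crossed block in the wild type, added after the data were seen, gave 3 inhibitor genes called, as without it.

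Over all genes the number called depended far more on the setting. In the wild type at 3 h it was 702, with 64 in the fit within the table and 10628 without the libraries of low 5.8S content. In the p53 mutant at 3 h it was 85, from 1 to 8485, and in the triple mutant at 3 h 139, from 110 to 3281. In the triple mutant at 2 h the number was 41, from 37 to 7138. Depth is unknown, so the counting error of low levels, such as those of cdkn2a/b in untreated embryos, cannot be given.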
